A study of Mus musculus with 15 samples.

Results

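The 10 pan-endothelial genes Cdh5, Pecam1, Esam, Kdr, Flt1, Tek, Tie1, Emcn, Klf2 and Nos3 were followed through the aorta-gonad-mesonephros (AGM) region of the mouse embryo. They were chosen by name, as genes commonly used to mark vascular endothelium, and are 10 of the 28876 genes in the deposited table. RNA was sequenced from 15 libraries of C57BL/6 embryos in 5 groups of 3. The dorsal aorta and the tissue around it were cut into dorsal (AoD) and ventral (AoV) parts at embryonic stages E9.5 (E9 AoD and E9 AoV) and E10.5 (E10 AoD and E10 AoV), and the urogenital ridges were taken at E10.5 alone (E10 UGR). Below, the dorsal aorta stands for AoD and the ventral aorta for AoV, which are parts of the same vessel and its surroundings. The labels name no allele, transgene or treatment for any group. Each library came from whole dissected tissue pooled over many embryos, so that endothelium was sequenced together with mesenchyme, blood and neighbouring organs. In such bulk samples a smaller number of endothelial cells cannot be told apart from less RNA of a gene per endothelial cell.

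Endothelial cells line every blood vessel, and in the AGM region some of them give rise to hematopoietic stem cells. The cells are joined by the adhesion proteins VE-cadherin (Cdh5), PECAM-1 (Pecam1) and ESAM (Esam), and they carry receptors for vascular endothelial growth factor, VEGF (Kdr and Flt1), and for the angiopoietins (Tek, with its partner Tie1). Endomucin (Emcn) is a sialomucin of the endothelial surface that is typical of veins and capillaries, Klf2 is a transcription factor induced by laminar blood flow, and Nos3 is the endothelial nitric oxide synthase.

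The promoters of 6 of the 10 genes were at hand, as RefSeq windows on GRCm38.p6 of 300 bases each, reaching from 250 bases before to 50 bases after the start of transcription. Upstream bases of Tie1 and Klf2 are not printed, because they overlap an annotated transcript of the gene. The upstream 250 bases of Kdr, Flt1, Tek and Emcn, the pair of VEGF receptors, an angiopoietin receptor and the surface mucin, are shown. They are written 5' to 3' on the strand of the gene, at chr5:75978456-75978705 (minus strand) for Kdr, chr5:147726012-147726261 (minus strand) for Flt1, chr4:94739039-94739288 (plus strand) for Tek and chr3:137340828-137341077 (plus strand) for Emcn. Capitals mark the letters GGAAGT (the core of an ETS motif) and CACCC (a KLF motif) on either strand.
Kdr: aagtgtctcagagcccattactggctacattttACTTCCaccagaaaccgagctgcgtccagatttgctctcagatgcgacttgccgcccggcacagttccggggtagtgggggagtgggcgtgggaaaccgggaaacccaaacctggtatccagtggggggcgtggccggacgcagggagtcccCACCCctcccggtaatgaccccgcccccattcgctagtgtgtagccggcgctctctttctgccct
Flt1: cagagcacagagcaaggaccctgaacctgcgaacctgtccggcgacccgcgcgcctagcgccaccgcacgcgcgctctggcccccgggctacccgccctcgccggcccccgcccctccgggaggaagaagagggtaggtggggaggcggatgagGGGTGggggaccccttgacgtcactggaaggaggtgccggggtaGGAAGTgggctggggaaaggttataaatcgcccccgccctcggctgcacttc
Tek: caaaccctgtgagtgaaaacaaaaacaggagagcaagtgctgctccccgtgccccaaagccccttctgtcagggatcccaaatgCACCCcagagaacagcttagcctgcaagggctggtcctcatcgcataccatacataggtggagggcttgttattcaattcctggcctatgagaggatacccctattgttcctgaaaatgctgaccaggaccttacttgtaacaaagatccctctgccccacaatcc
Emcn: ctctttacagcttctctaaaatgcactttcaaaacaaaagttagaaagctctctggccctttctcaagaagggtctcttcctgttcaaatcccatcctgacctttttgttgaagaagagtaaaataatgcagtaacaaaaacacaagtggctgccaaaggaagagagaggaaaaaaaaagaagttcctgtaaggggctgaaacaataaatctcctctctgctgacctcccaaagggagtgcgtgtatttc
Kdr and Flt1 each held 1 ETS match and 1 KLF match, Tek held 1 KLF match and Emcn held neither. In the other windows, Tie1 had 1 ETS match and 3 KLF matches, and Klf2 had 1 KLF match. Over the full windows, 3 of the 6 genes thus held GGAAGT, against 23.8% of all 32851 promoter windows, and 5 of 6 held CACCC, against 57.5%. These counts include the windows of Tie1 and Klf2 that overlap a transcript. The share of G and C upstream was 61.6% for Kdr, 70.4% for Flt1, 60.4% for Tie1 and 71.2% for Klf2. It was 51.2% for Tek and 40.8% for Emcn, against a median of 52.4% for all promoters, and the counts were not adjusted for it. The GATA letters AGATAA were in 1 window, that of Tek, between bases 36 and 41 after the start, against 11.2% of all windows. The MEF2 letters TATTTATA were in 0 of the 6, against 1.7% of all windows. No match overlapped another. These matches describe the letters of the windows and are no evidence of binding.

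Values are RPM (reads-per-million assigned to genes), which are not adjusted for gene length. The depth read from the size of a single read's RPM was between 33.8 and 48.5 megareads per library. The fewest reads of any of the 10 genes in a library, about 413 for Klf2 at 11.1 RPM in the second E9 AoD library, have a counting error of 4.92%, and the highest level, Cdh5 at 230 RPM in the third E10 AoD library, rested on about 9700 reads. All 10 genes passed the filter of at least 0.5 RPM in at least 1 library, as did 18553 genes in all, and no library was below 10.2 RPM for any of the 10. Differences are given on the scale of log2(RPM + 0.1) with their standard error (SE), and a gene is said to have risen or fallen only where the Benjamini-Hochberg adjusted p of limma, over all 18553 genes, was below 0.05. The labels do not say which pools share a litter, and p-values measure the spread between these pools.

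The 10 genes shared a low level in E9 AoD, the group with the lowest mean for every one of them. Summed over the 10 genes, the level was between 354 and 471 RPM in the E9 AoD libraries and between 710 and 755 RPM in E9 AoV. At E10.5 their sum was between 846 and 940 RPM in AoD, between 884 and 913 RPM in AoV and between 621 and 653 RPM in UGR. Part of the difference between the stages in these sums is that of Klf2 alone. Its means were 20.2 RPM in E9 AoD and 35.3 RPM in E9 AoV. At E10.5 its means were 164 RPM in AoD, 147 RPM in AoV and 88.8 RPM in UGR. The groups parted at the top of the order. Cdh5, Pecam1, Tie1, Esam, Klf2 and Nos3 had their highest means in the E10.5 aorta, where the dorsal and ventral libraries overlapped for each of them. Flt1 was highest in E10 AoD, Kdr and Tek were highest in E9 AoV and Emcn was highest in E10 UGR, each without overlap with the next group. The highest group mean was between 1.67 times (Flt1) and 2.88 times (Tek) the lowest for 9 of the genes, and 8.14 times the lowest for Klf2.

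**Figure D1:**
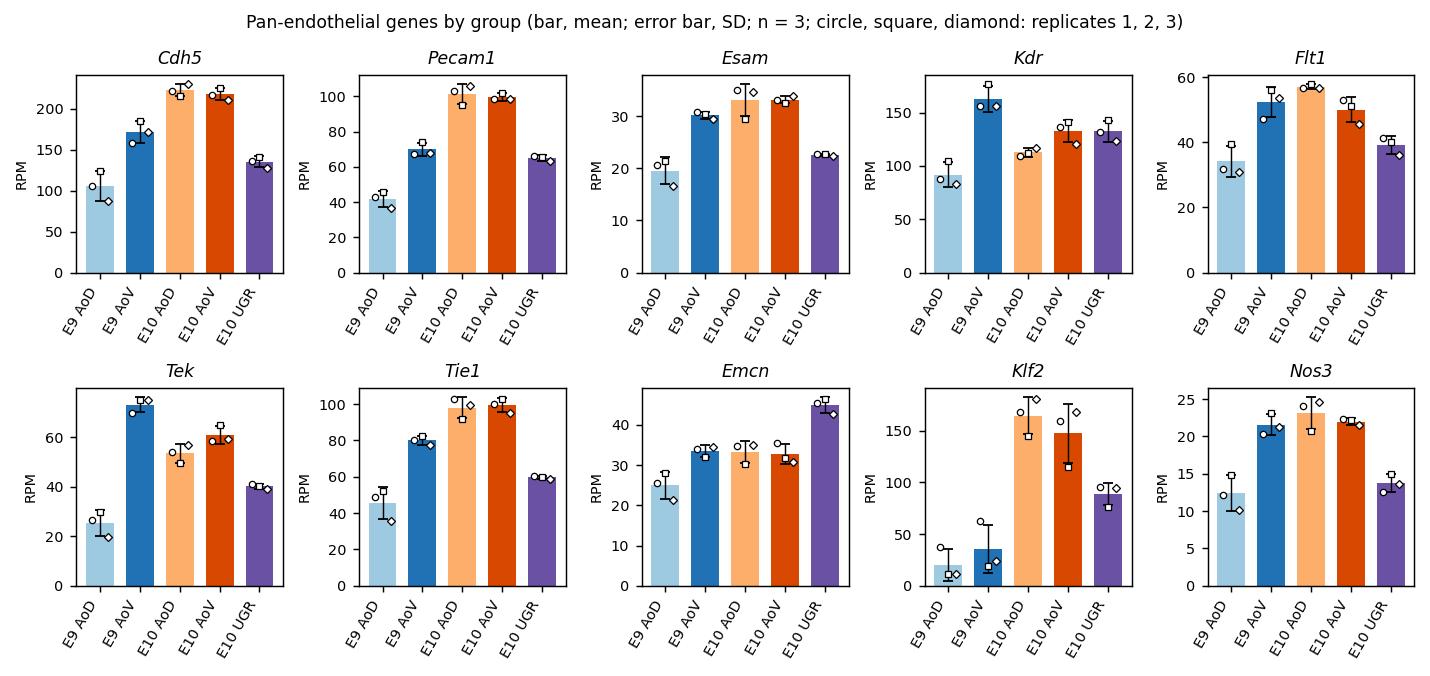
RPM of the 10 pan-endothelial genes in each group; bars are means, error bars SDs of 3 libraries, and circles, squares and diamonds the libraries numbered 1, 2 and 3. E9 AoD has the lowest mean in each panel, Kdr and Tek are highest in E9 AoV, Emcn is highest in E10 UGR, and the first E9.5 libraries lie above the others for Klf2.

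Per kilobase of annotated exons, which allows genes to be compared, Cdh5 was the most abundant of the 10 at E9.5, with 26.5 ± 4.57 RPM per kb in E9 AoD and 43.0 ± 3.39 RPM per kb in E9 AoV (SD, n = 3). At E10.5 Klf2 stood above it, with 89.0 ± 9.63 RPM per kb in E10 AoD, 79.8 ± 15.4 RPM per kb in E10 AoV and 48.1 ± 5.83 RPM per kb in E10 UGR, each above the Cdh5 range of the same group. Flt1 and Nos3 were the lowest pair in every group, between 2.95 and 5.60 RPM per kb on average, with overlapping ranges in E9 AoD and E10 UGR. Within E9 AoD, the neighbours from Kdr down to Emcn overlapped throughout and their order is not resolved, whereas in E10 AoV no neighbours overlapped.

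The comparisons across stage and position differed in how many of the genes moved. From E9 AoD to E10 AoD, 10 of 10 genes rose, where 30% of all tested genes rose and 27.9% fell. From E9 AoV to E10 AoV, 4 of 10 rose (Klf2, Pecam1, Cdh5 and Tie1), 1 fell (Kdr) and 5 did not pass the test. In that comparison 23.6% of all tested genes rose and 22.4% fell. At E9.5, 9 of 10 were higher in AoV than in AoD and Klf2 did not pass, where 27.5% of all tested genes were higher and 20.1% lower. After Tek, at 1.54, the differences at E9.5 were 0.83 for Kdr and Tie1, 0.81 for Nos3, 0.75 for Pecam1, 0.71 for Cdh5, 0.63 for Esam, 0.62 for Flt1 and 0.43 for Emcn. At E10.5, 1 of 10 (Kdr) was higher in AoV than in AoD and 9 did not pass, against 20.2% of all tested genes higher and 15.3% lower.

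Both E10.5 aortic groups stood above the urogenital ridges for most of the genes. In E10 AoV 7 of 10 were higher than in E10 UGR, Emcn was lower, and Kdr and Klf2 did not pass, where 12.5% of all tested genes were higher and 16.6% lower. In E10 AoD 7 of 10 were higher, Kdr and Emcn were lower and Klf2 did not pass, where 14.5% of all tested genes were higher and 24.8% lower. The higher genes were Tie1, Cdh5, Nos3, Pecam1, Tek, Esam and Flt1 in both, with differences from 0.35 (Flt1) to 0.73 (Tie1) in E10 AoV and from 0.41 (Tek) to 0.74 (Nos3) in E10 AoD. These comparisons share libraries with each other and are not independent.

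Few of these differences reached 2-fold. With a fold of at least 2 required as well, 5 of 10 genes passed in E10 AoD against E9 AoD (Klf2, Pecam1, Tie1, Tek and Cdh5), where 12.6% of all tested genes passed in either direction. Klf2 alone passed in E10 AoV against E9 AoV (11% of all tested genes) and Tek alone in E9 AoV against E9 AoD (11.8%). None of the 10 passed in E10 AoV against E10 AoD (10.1% of all tested genes), in E10 AoV against E10 UGR (7.57%) or in E10 AoD against E10 UGR (11.3%). The median log2 difference of the 10 genes was 1.0 for E10 AoD against E9 AoD, 0.08 for E10 AoV against E9 AoV, 0.78 for E9 AoV against E9 AoD, -0.02 for E10 AoV against E10 AoD, 0.61 for E10 AoV against E10 UGR and 0.59 for E10 AoD against E10 UGR. Over all tested genes the median was between -0.05 and 0.02 in these comparisons.

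**Figure D2:**
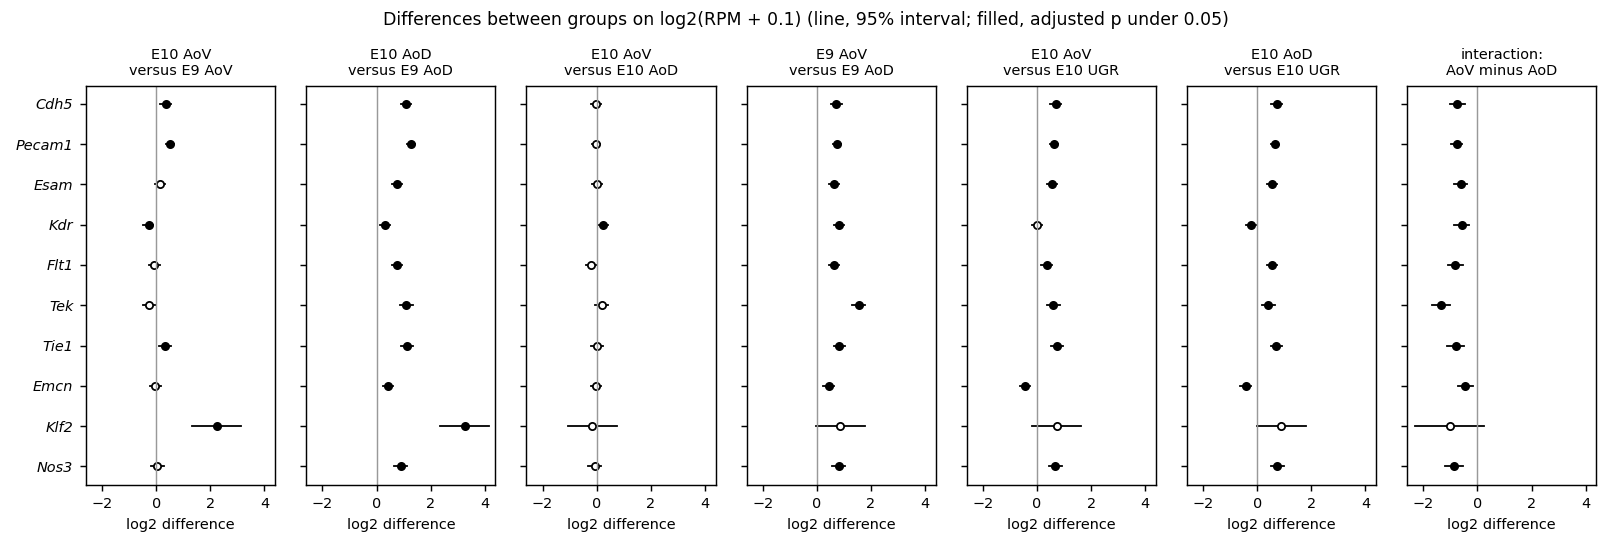
Log2 difference of each gene in the 6 comparisons and in the interaction of stage and position, on the log2(RPM + 0.1) scale; lines are 95% intervals and filled points have an adjusted p below 0.05. The dorsal change between stages lies above 0 for 10 of 10 genes, the E10.5 aortic comparison lies near 0, and the intervals of Klf2 are the widest.

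Among the adhesion genes, Cdh5 (VE-cadherin, the core of endothelial adherens junctions, NCBIM37 chromosome 8 from 106625525 to 106668402) was at 105, 124 and 87.6 RPM in the 3 E9 AoD libraries and at 158, 185 and 171 RPM in E9 AoV. It was at 222, 215 and 230 RPM in E10 AoD, at 217, 225 and 210 RPM in E10 AoV and at 136, 141 and 128 RPM in E10 UGR. The aortic libraries of E10.5 were above all others, the E9 AoV libraries were next and E9 AoD was lowest, with no overlap except between the E10.5 aortic groups. Cdh5 rose by 1.09 (SE 0.0935, adjusted p = 1.85e-07) from E9 AoD to E10 AoD and by 0.35 (SE 0.0935, adjusted p = 0.00736) in the ventral aorta. Its difference between E10 AoV and E10 AoD was -0.03, with a 95% interval from -0.23 to 0.17.

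Pecam1 (PECAM-1, a junctional protein that platelets, leukocytes and germ cells carry too, chromosome 11 from 106515531 to 106611942) was at 42.7, 45.6 and 36.9 RPM in E9 AoD and at 67.4, 74.3 and 68.1 RPM in E9 AoV. In E10 AoD it reached 103, 94.9 and 106 RPM, in E10 AoV 98.3, 102 and 98.7 RPM, and in E10 UGR 66.1, 65.8 and 63.1 RPM. The order of groups was that of Cdh5. It rose by 1.28 in the dorsal aorta (SE 0.0677, adjusted p = 1.95e-09), the change with the smallest adjusted p among the 10 genes, and by 0.51 in the ventral aorta (SE 0.0677, adjusted p = 2.19e-05). The ratio of Pecam1 to Cdh5 RPM was 0.399 ± 0.0277 for AoD and 0.409 ± 0.0155 for AoV at E9.5 and 0.455 ± 0.0122 for AoD, 0.459 ± 0.00972 for AoV and 0.482 ± 0.0136 for UGR at E10.5 (SD, n = 3), so that the E10.5 ratios all lay above those of E9.5.

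Esam (an immunoglobulin protein of endothelial tight junctions, chromosome 9 from 37335663 to 37345904) measured 20.7, 21.3 and 16.6 RPM in E9 AoD and 30.7, 30.4 and 29.4 RPM in E9 AoV. At E10.5 it measured 35.1, 29.5 and 34.6 RPM in AoD, 33.0, 32.6 and 33.9 RPM in AoV and 22.7, 22.7 and 22.4 RPM in UGR. The E9 AoV, E10 AoD and E10 AoV libraries lay above the remaining groups. Esam rose by 0.76 in the dorsal aorta (SE 0.0832, adjusted p = 2.13e-06), while the ventral difference of 0.14 did not pass (95% interval -0.04 to 0.31, adjusted p = 0.199).

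Of the VEGF receptors, Kdr (the main signalling receptor, chromosome 5 from 76328852 to 76374483) was at 87.4, 105 and 83.4 RPM in E9 AoD and at 156, 177 and 156 RPM in E9 AoV. It was at 109, 112 and 117 RPM in E10 AoD, at 137, 141 and 121 RPM in E10 AoV and at 132, 143 and 123 RPM in E10 UGR. The E9 AoV libraries were the highest, and those of E10 AoV and E10 UGR covered the same range. Kdr rose by 0.30 from E9 AoD to E10 AoD (SE 0.0856, adjusted p = 0.0077) and fell by 0.29 over the same time in the ventral aorta (SE 0.0856, adjusted p = 0.0115). The ventral fall was at adjusted p = 0.053 without the second E9 AoV library and at 0.06 without the third E10 AoV library.

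At E10.5, Kdr was 0.24 higher in AoV than in AoD (SE 0.0856, adjusted p = 0.0435) and 0.23 lower in AoD than in UGR (log2 difference -0.23, SE 0.0856, adjusted p = 0.0424). Both calls were near the threshold. The first was above 0.05 when any of the 3 E10 AoD libraries or the first or second E10 AoV library was left out (adjusted p between 0.0571 and 0.160), and the second when any of the 3 E10 AoD libraries or the first or second E10 UGR library was left out (adjusted p between 0.0548 and 0.165). Both were also above 0.05 after quantile normalisation (adjusted p = 0.0512 and 0.0554), with median-ratio scaling (0.077 and 0.142) and without the filter on low values (0.0843 and 0.0834). Between E10 AoV and E10 UGR the difference was 0.00, with a 95% interval from -0.18 to 0.19.

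Flt1 (a receptor that binds VEGF tightly and signals weakly, chromosome 5 from 148373180 to 148537587) was at 31.8, 39.6 and 31.0 RPM in E9 AoD and 47.2, 56.1 and 53.7 RPM in E9 AoV. At E10.5 it measured 56.7, 57.9 and 56.7 RPM in AoD, 53.0, 51.2 and 45.6 RPM in AoV and 41.3, 40.0 and 36.2 RPM in UGR. The E10 AoD libraries were the highest and close together, and the UGR and E9 AoD libraries overlapped. Flt1 rose by 0.75 in the dorsal aorta (SE 0.0908, adjusted p = 6.02e-06), and the ventral difference of -0.07 did not pass (95% interval -0.26 to 0.13, adjusted p = 0.585). The E10.5 difference of -0.20 between AoV and AoD had non-overlapping libraries and an adjusted p of 0.111. It passed after quantile normalisation (-0.24, adjusted p = 0.0434) and with only the groups compared in the fit (-0.20, adjusted p = 0.032).

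The balance of the VEGF receptors differed between the groups. The ratio of Kdr to Flt1 RPM was 2.70 ± 0.0488 for AoD and 3.12 ± 0.202 for AoV at E9.5, and 1.97 ± 0.0782 for AoD, 2.66 ± 0.085 for AoV and 3.39 ± 0.19 for UGR at E10.5 (SD, n = 3). E10 AoD had the lowest ratio, with a highest library of 2.06, below the 2.58 of the lowest library elsewhere. Against Cdh5, Kdr gave a ratio of 0.877 ± 0.0653 in E9 AoD, 0.952 ± 0.0377 in E9 AoV and 0.982 ± 0.0284 in E10 UGR, and of 0.507 ± 0.0151 in E10 AoD and 0.611 ± 0.0306 in E10 AoV. The E10.5 aortic libraries had less Kdr per Cdh5 than any of the other libraries.

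Of the other VEGF genes listed (5 ligands, Flt4, Nrp1 and Nrp2), 6 of 8 fell and 0 rose from E9 AoV to E10 AoV, where 22.4% of all tested genes fell and 23.6% rose. From E9 AoD to E10 AoD 3 rose and 1 fell, against 30% and 27.9% of all tested genes. Nrp2, a co-receptor also typical of veins and lymphatics, fell by 1.61 in the ventral aorta (adjusted p = 6.67e-08), from a mean of 335 to 109 RPM, and rose by 0.37 in the dorsal aorta (adjusted p = 0.0152), from 183 to 238 RPM. Nrp1, the co-receptor of arteries, rose by 0.84 dorsally (adjusted p = 2.88e-05), and its ventral difference was -0.10 (adjusted p = 0.518). Flt4, the receptor of VEGF-C, fell by 0.37 ventrally (adjusted p = 0.00305) and by 0.22 dorsally (adjusted p = 0.0445).

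The ligands were measured in all tissue of the pools. Vegfa fell by 0.33 in the ventral aorta (adjusted p = 0.00374) and differed by 0.03 in the dorsal aorta (adjusted p = 0.8), and Vegfc fell by 0.34 ventrally (adjusted p = 0.0169) and rose by 0.36 dorsally (adjusted p = 0.00887). Figf, also called VEGF-D, fell by 1.14 ventrally (adjusted p = 0.000153), from 1.5 to 0.615 RPM, and Vegfb fell by 0.23 (adjusted p = 0.00424), whereas Pgf, placental growth factor, did not pass in either position (-0.24 ventrally and 0.26 dorsally). At E9.5, 6 of the 8 genes were higher in AoV than in AoD and 2, Vegfb and Figf, were lower, against 27.5% and 20.1% of all tested genes. At E10.5, 1 (Flt4) was higher in AoV and 3 (Vegfb, Figf and Nrp2) were lower, against 20.2% and 15.3%.

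Tek, the angiopoietin receptor (chromosome 4 from 94405980 to 94541667), was at 26.5, 29.9 and 19.7 RPM in E9 AoD and at 69.7, 74.9 and 74.8 RPM in E9 AoV. It was at 54.1, 49.4 and 57.0 RPM in E10 AoD, at 58.4, 65.0 and 59.4 RPM in E10 AoV and at 41.1, 40.4 and 39.0 RPM in E10 UGR. The 5 groups did not overlap at any step of the order. At E9.5 Tek was 1.54 higher in AoV (SE 0.11, adjusted p = 3.8e-08), a fold of 2.92 and the largest ventral excess of the 10 genes at that stage. It rose by 1.09 in the dorsal aorta (SE 0.11, adjusted p = 8.95e-07), and the ventral difference of -0.26 did not pass (95% interval -0.50 to -0.03, adjusted p = 0.0627). The latter was at adjusted p = 0.0426 after quantile normalisation and at 0.00526 with only the groups compared in the fit.

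Tie1, the partner receptor of Tek (chromosome 4 from 118143796 to 118162666), was at 49.1, 52.0 and 35.4 RPM in E9 AoD and 80.4, 82.4 and 77.4 RPM in E9 AoV. At E10.5 it measured 103, 91.9 and 99.4 RPM in AoD, 99.8, 103 and 95.3 RPM in AoV and 60.3, 59.7 and 59.0 RPM in UGR. Unlike Tek, it was highest at E10.5. Tie1 rose by 1.12 in the dorsal aorta (SE 0.102, adjusted p = 3.15e-07) and by 0.31 in the ventral aorta (SE 0.102, adjusted p = 0.0215). The ventral rise was at adjusted p = 0.0692 without the third E9 AoV library, 0.0545 without the first E10 AoV library and 0.0721 without the second. The ratio of Tek to Tie1 RPM was 0.914 ± 0.0499 in E9 AoV and between 0.545 and 0.673 on average in the other groups, and the lowest E9 AoV library, at 0.867, lay above the highest library elsewhere, at 0.682.

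Of the 4 other angiopoietin-Tie genes, 4 rose in the dorsal aorta and 3 in the ventral aorta, where 30% and 23.6% of all tested genes rose. Angpt2, the context-dependent ligand of Tek, rose by 2.48 dorsally (adjusted p = 5.12e-09), from a mean of 3.08 to 17.3 RPM, and by 1.04 ventrally (adjusted p = 4e-05), from 16.2 to 33.2 RPM. Angpt1, the activating ligand, made largely by perivascular cells, rose by 0.97 dorsally (adjusted p = 9.89e-07) and by 0.56 ventrally (adjusted p = 0.000279). Ptprb, the phosphatase that acts on Tek and VE-cadherin, rose by 1.65 dorsally (adjusted p = 3.09e-07) and by 0.79 ventrally (adjusted p = 0.000548). Angpt4 rose by 2.66 dorsally (adjusted p = 8.34e-08), to 10.6 RPM, with a ventral difference of -0.48 (adjusted p = 0.0779). Angpt1 and Angpt2 thus rose in the ventral aorta, where Tek itself did not.

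Emcn (chromosome 3 from 137004031 to 137095149) was the only one of the 10 genes with its highest level in the urogenital ridges. It measured 25.6, 28.0 and 21.2 RPM in E9 AoD and 34.0, 31.9 and 34.5 RPM in E9 AoV. At E10.5 it measured 34.7, 30.2 and 34.9 RPM in AoD, 35.5, 31.8 and 30.8 RPM in AoV and 45.4, 46.5 and 42.7 RPM in UGR. The 3 aortic groups other than E9 AoD covered the same range, and every UGR library was above them. Emcn was lower than in E10 UGR by a log2 difference of -0.46 in E10 AoV (SE 0.0904, adjusted p = 0.00132) and of -0.43 in E10 AoD (SE 0.0904, adjusted p = 0.00134). It rose by 0.42 in the dorsal aorta (SE 0.0904, adjusted p = 0.00105), and its ventral difference was -0.04 (95% interval -0.23 to 0.16). The ratio of Emcn to Cdh5 RPM was 0.332 ± 0.00227 in E10 UGR and 0.150 ± 0.00815 in E10 AoD and 0.151 ± 0.0116 in E10 AoV (SD, n = 3).

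Most arterial genes were higher in the aorta, where Emcn was lower. Of 9 listed arterial genes, 8 were higher in the ventral and 7 in the dorsal part of the E10.5 aorta than in E10 UGR, and 0 were lower in either. Among all tested genes 12.5% were higher and 16.6% lower in E10 AoV, and 14.5% were higher and 24.8% lower in E10 AoD. Gja5, a gap junction protein of arterial endothelium, averaged 147 RPM in E10 AoD and 111 RPM in E10 AoV, against 11.5 RPM in E10 UGR (log2 difference 3.67, adjusted p = 5.5e-10, for E10 AoD and 3.27, adjusted p = 6.46e-09, for E10 AoV). Efnb2, the arterial ephrin, was 1.02 higher in E10 AoV (adjusted p = 4.64e-08) and 0.95 higher in E10 AoD (adjusted p = 3.71e-08). Unc5b was 1.33 higher in E10 AoV (adjusted p = 1.23e-07), with a difference of 0.24 in E10 AoD (adjusted p = 0.0641), and Hey1 differed by -0.14 and -0.02 (adjusted p = 0.288 and 0.919). Against E10 UGR, of 5 listed venous genes 2 were lower and 0 higher in E10 AoV, and 3 were lower and 1 higher in E10 AoD. The higher gene was Nrp2, with means of 238 RPM in E10 AoD and 107 RPM in E10 UGR (1.15, adjusted p = 1.92e-06). Aplnr, the apelin receptor, was lower by log2 differences of -1.07 (adjusted p = 3.8e-06) in E10 AoV and -1.47 (adjusted p = 6.96e-08) in E10 AoD. Nr2f2, which mesenchyme expresses too, had a mean of 393 RPM in E10 AoV, 139 RPM in E10 AoD and 365 RPM in E10 UGR, and Ephb4, the venous ephrin receptor, had 155, 154 and 164 RPM.

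Klf2 (chromosome 8 from 74842932 to 74845555) gave the largest change and the widest spread. It was at 37.9, 11.1 and 11.6 RPM in E9 AoD and at 62.2, 19.6 and 24.2 RPM in E9 AoV. It was at 168, 145 and 180 RPM in E10 AoD, at 159, 115 and 168 RPM in E10 AoV and at 95.9, 76.4 and 94.1 RPM in E10 UGR. Every E10.5 library was above every E9.5 library, and the first library of both E9.5 groups lay well above the other two. Klf2 rose by 3.26 in the dorsal aorta (SE 0.424, adjusted p = 1.2e-05), a fold of 9.59, and by 2.23 in the ventral aorta (SE 0.424, adjusted p = 0.000584), a fold of 4.69. With the first library of both E9.5 groups left out, an alternative chosen after the values were seen, the rises were 3.84 (adjusted p = 5.82e-09) and 2.73 (adjusted p = 7.37e-08).

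The remaining comparisons of Klf2 turned on that spread. At E9.5 it was 0.86 higher in AoV than in AoD without passing (95% interval -0.05 to 1.77, adjusted p = 0.111), although each AoV library was above the AoD library of the same number. With the replicate number as a block the same difference passed, at adjusted p = 0.034. In that model with only the E9.5 groups, an alternative chosen after the data were seen, the adjusted p was 9.45e-05. It was 1.44 (adjusted p = 0.00376) without the first E9 AoD library and 1.19 (adjusted p = 0.0458) without the second E9 AoV library. Against E10 UGR, Klf2 was 0.72 higher in E10 AoV (95% interval -0.19 to 1.63, adjusted p = 0.231) and 0.89 higher in E10 AoD (95% interval -0.02 to 1.80, adjusted p = 0.116). The libraries did not overlap in either comparison, and with only the groups compared in the fit, which leaves out the spread of E9.5, both passed (adjusted p = 0.00402 and 0.000309). With the replicate block, E10 AoD against E10 UGR was at adjusted p = 0.0347.

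Genes that respond within minutes to many stimuli, tissue handling among them, moved with Klf2. Summed over 8 such immediate early genes (Fos, Fosb, Jun, Junb, Egr1, Ier2, Atf3 and Dusp1, a list added after the values of Klf2 were seen), the level was 1400, 694 and 657 RPM in the E9 AoD libraries and 1750, 722 and 1040 RPM in E9 AoV. It was 4840, 3900 and 5050 RPM in E10 AoD, 4750, 3600 and 4700 RPM in E10 AoV and 3050, 2600 and 3160 RPM in E10 UGR. The first E9.5 libraries were again the highest of their groups, and the second library was the lowest of each E10.5 group for Klf2 and for the sum alike. From E9.5 to E10.5 8 of 8 rose in the dorsal and 8 of 8 in the ventral aorta, where 30% and 23.6% of all tested genes rose. The medians of the 8 genes were 2.44 and 1.97 on the log2 scale, and Fos rose by 2.81 (adjusted p = 7.66e-06) and 2.17 (adjusted p = 0.000137). The part of this response in the Klf2 values was not tested.

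**Figure D3:**
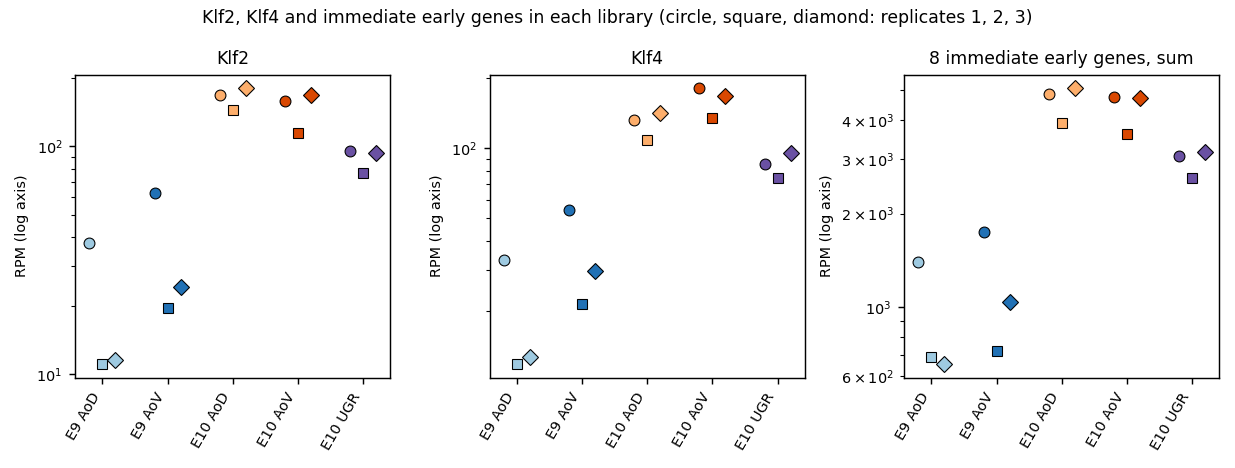
RPM of Klf2, of its relative Klf4 and of 8 immediate early genes summed, in each library on log axes; circles, squares and diamonds are the libraries numbered 1, 2 and 3. In all 3 panels the E10.5 libraries are above those of E9.5 and the first library of each E9.5 group is above the other libraries of that group.

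Nos3 (chromosome 5 from 23870628 to 23890292) was at 12.2, 14.9 and 10.2 RPM in E9 AoD and 20.4, 23.1 and 21.3 RPM in E9 AoV. At E10.5 it measured 24.1, 20.7 and 24.6 RPM in AoD, 22.3, 22.2 and 21.5 RPM in AoV and 12.6, 15.0 and 13.7 RPM in UGR. The E9 AoV, E10 AoD and E10 AoV libraries shared the same range, above a lower range shared by E9 AoD and E10 UGR. Nos3 rose by 0.90 in the dorsal aorta (SE 0.112, adjusted p = 7.65e-06), and its ventral difference was 0.03 (95% interval -0.21 to 0.27). Exons of Atg9b and of the transcript Gm15587, on the opposite strand, cover 1334 of its 4132 exon bases, and the sources used here do not say whether counting used strand, so that its values are uncertain.

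Of 10 other genes of flow sensing and nitric oxide signalling, 7 rose in the dorsal aorta, 6 rose in the ventral aorta and 0 fell in either. The shares of all tested genes that rose were 30% dorsally and 23.6% ventrally. Klf4 rose by 2.89 dorsally (adjusted p = 5.34e-06) and by 2.29 ventrally (adjusted p = 7.65e-05), with the same high first libraries at E9.5 as Klf2. Thbd, the anticoagulant thrombomodulin and a target of Klf2, rose by 2.21 (adjusted p = 1.99e-10) and 1.09 (adjusted p = 1.38e-07), to 23.1 RPM in E10 AoD and 25.0 RPM in E10 AoV. Edn1, the vasoconstrictor endothelin, rose by 2.07 (adjusted p = 7.39e-08) and 0.95 (adjusted p = 0.000229). Cav1, caveolin, rose by 1.80 (adjusted p = 2.71e-08) and 1.68 (adjusted p = 7.96e-08), and Mef2c, a transcription factor that activates Klf2, by 1.39 (adjusted p = 2.28e-07) and 1.41 (adjusted p = 3.17e-07). Piezo1, a flow-sensing channel, and Map2k5 and Mapk7, the kinases of the ERK5 pathway, passed in neither position, with differences between -0.13 and 0.09.

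The subunits of the nitric oxide receptor, guanylate cyclase, differed by position. Gucy1a3 was at a mean of 2.26 RPM in E9 AoD and 24.5 RPM in E9 AoV (log2 difference 3.47, adjusted p = 1.66e-08), and at 6.50 RPM in E10 AoD and 41.4 RPM in E10 AoV (2.65, adjusted p = 2.83e-07). Gucy1b3 was at 2.25 and 19.1 RPM at E9.5 (3.04, adjusted p = 9.53e-11) and at 8.46 and 21.3 RPM at E10.5 (1.32, adjusted p = 3.1e-08). Their levels differed between AoV and AoD at E10.5, where the difference of Nos3 was -0.07 (95% interval -0.31 to 0.17).

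The stage change differed by position for most of the 10 genes. The interaction, which is the ventral change between stages minus the dorsal change, was below 0 for 10 of 10 genes. It passed for 9 of them, where 16.3% of all tested genes passed below 0 and 11.8% above. It was largest for Tek, at -1.36 (SE 0.155, adjusted p = 1.36e-05), the only member to pass with a fold of at least 2, where 11% of all tested genes passed in either direction. For Flt1, Nos3, Tie1, Pecam1 and Cdh5 it was between -0.88 and -0.74, and for Esam, Kdr and Emcn between -0.62 and -0.46. Klf2, at -1.03 with a 95% interval from -2.31 to 0.25, did not pass (adjusted p = 0.233). It passed without the first E9 AoD library (-1.61, adjusted p = 0.0181) and without the first library of both E9.5 groups (-1.11, adjusted p = 0.0026). The median over the 10 genes was -0.79. The interaction is built from the same E9 AoD libraries as the dorsal rise, so that both share the low dorsal level of E9.5.

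Other endothelial genes were also low in E9 AoD. Of 20 further endothelial genes, 17 rose and 0 fell in the dorsal aorta between stages, 8 rose and 3 fell in the ventral aorta, 20 were higher in E9 AoV than in E9 AoD, and 1 was higher and 0 lower in E10 AoV than in E10 AoD. Against E10 UGR, 12 were higher and 1 lower in E10 AoV, and 12 higher and 3 lower in E10 AoD. In the interaction 17 passed below 0 and 0 above, against 16.3% and 11.8% of all tested genes. Among all tested genes 30% rose and 27.9% fell dorsally, and 23.6% rose and 22.4% fell ventrally. The shares higher in AoV than in AoD were 27.5% at E9.5 and 20.2% at E10.5. Against E10 UGR, 12.5% were higher and 16.6% lower in E10 AoV, and 14.5% and 24.8% in E10 AoD. Calcrl, the receptor of adrenomedullin, rose by 1.37 dorsally (adjusted p = 3.52e-07) and by 0.56 ventrally (adjusted p = 0.00206), and Cd93 by 0.90 (adjusted p = 1.87e-06) dorsally, with a ventral difference of 0.21 (adjusted p = 0.0963). Cd34 rose by 0.57 (adjusted p = 3.06e-06) and 0.26 (adjusted p = 0.00458). Plvap, the protein of endothelial diaphragms, rose by 0.60 dorsally (adjusted p = 3.15e-05) and had means of 112 RPM in E10 UGR and 114 RPM in E10 AoV (difference 0.02, adjusted p = 0.886).

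Each gene was then set against the mean log2 level of these 20 genes, to describe how far it moved with that mean. The 20 genes were not uniform, with dorsal differences between stages from 0.08 to 1.65, so that the ratio depends on which genes are listed. The mean of the 20 was 4.24 ± 0.195 for AoD and 4.92 ± 0.052 for AoV at E9.5, and 5.07 ± 0.0827 for AoD, 5.13 ± 0.0461 for AoV and 4.65 ± 0.0494 for UGR at E10.5 (SD, n = 3). Relative to it, Esam varied least, with group means within 0.19 of each other, followed by Cdh5 and Tie1 with 0.29 each. Flt1, Nos3 and Pecam1 varied by 0.34, 0.37 and 0.45. Kdr, Tek, Emcn and Klf2 varied by 0.69, 0.86, 0.94 and 2.43.

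These 4 genes thus departed most from the endothelial list. Tek was 1.27 ± 0.0483 above it in E9 AoV and between 0.41 and 0.80 above it elsewhere. Emcn was 0.84 ± 0.0247 above it in E10 UGR and at -0.02 ± 0.0356 in E10 AoD and -0.09 ± 0.111 in E10 AoV. Kdr was 2.40 ± 0.0756 above it in E10 UGR, 2.43 ± 0.0542 in E9 AoV and 2.28 ± 0.0834 in E9 AoD, against 1.74 ± 0.0924 in E10 AoD and 1.93 ± 0.0779 in E10 AoV. On this scale Kdr had lower E10.5 than E9.5 values in both positions, with non-overlapping libraries, although its RPM rose dorsally. Klf2 went from -0.14 ± 1.0 in E9 AoD to 2.28 ± 0.0859 in E10 AoD and from 0.04 ± 0.924 in E9 AoV to 2.06 ± 0.34 in E10 AoV. These ratios are a description, without a test.

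**Figure D4:**
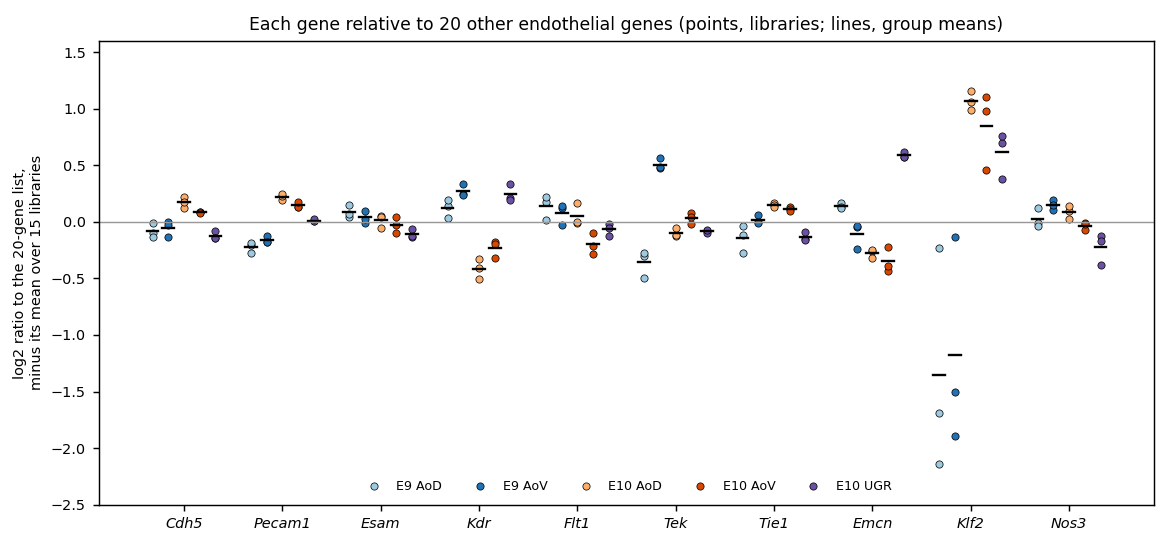
Log2 ratio of each gene to the mean of 20 other endothelial genes in every library, with the mean ratio over the 15 libraries subtracted; points are libraries and lines are group means. Esam stays close to 0, Tek stands out in E9 AoV, Emcn in E10 UGR, and Klf2 has 2 libraries far below 0 in each E9.5 group.

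Of 13 transcription factors of endothelial cells, 9 rose and 1 fell in the dorsal aorta, where 30% of all tested genes rose and 27.9% fell. In the ventral aorta 4 rose and 4 fell, near the 23.6% and 22.4% of all tested genes. In the interaction 10 passed below 0 and 0 above, against 16.3% and 11.8% of all tested genes. Sox7 and Sox17 rose by 1.06 (adjusted p = 1.04e-06) and 0.90 (adjusted p = 1.73e-05) dorsally and Sox18 by 0.28 (adjusted p = 0.0173), and Sox18 fell by 0.32 ventrally (adjusted p = 0.0118). Fli1 was at a mean of 53.8 RPM in E10 AoD and 26.6 RPM in E10 AoV (log2 difference -1.01, adjusted p = 2.47e-07). Erg rose by 0.44 dorsally (adjusted p = 0.00131) and Elk3 by 1.05 dorsally (adjusted p = 4.49e-09) and 0.73 ventrally (adjusted p = 2.21e-07), while Ets1 fell by 0.37 ventrally (adjusted p = 0.00136).

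Hhex fell by 0.76 ventrally (adjusted p = 0.0006), from 21.8 to 12.8 RPM, and rose by 0.84 dorsally (adjusted p = 0.000175), from 6.37 to 11.3 RPM. It is also a gene of foregut and liver. Etv2, an early inducer of the lineage, fell by 1.91 ventrally (adjusted p = 0.000228) and 2.15 dorsally (adjusted p = 5.17e-05), to means of 0.280 and 0.264 RPM. Gata2 rose by 1.96 dorsally (adjusted p = 2.61e-08) and 0.87 ventrally (adjusted p = 0.000113) but was highest in E10 UGR, at 64.5 RPM. Lyl1 rose by 0.99 dorsally (adjusted p = 0.000375), and Tal1 and Lmo2 passed in neither position. Of 9 junction partners, which include the widely expressed catenins Ctnnb1, Ctnna1 and Ctnnd1 and scaffold Tjp1 and also Cldn5, a claudin that is on the list of 20 endothelial genes, 4 rose and 1 fell dorsally and 4 rose and 0 fell ventrally, with a median interaction of -0.02. Among all tested genes 30% rose and 27.9% fell dorsally, and 23.6% rose and 22.4% fell ventrally.

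Markers of other tissues moved with position and stage beside the 10 genes. Summed over 7 neural tube genes, the level was 303, 256 and 463 RPM in the E9 AoD libraries, between 166 and 222 RPM in E10 AoD, and between 19.0 and 34.1 RPM in the other groups. The third E9 AoD library, with the most neural tube RNA, had the lowest level of that group for 9 of the 10 genes, Klf2 being the exception. Somite genes summed to between 501 and 509 RPM in E9 AoD and between 570 and 715 RPM in E10 AoD. Their sum was between 71.1 and 106 RPM in both AoV groups and between 151 and 212 RPM in E10 UGR. Sox2 and Zic1 of the neural tube had means of 107 and 57.3 RPM in E9 AoD, Tubb3 and Olig2 had 60.4 and 44.0 RPM, and Meox1 of the somite had 294 RPM. The neural tube genes did not all move alike. From E9 AoD to E10 AoD 5 of the 7 fell and 1, Tubb3, rose, to a mean of 124 RPM. Among all tested genes 27.9% fell and 30% rose.

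In E9 AoV, 7 gut and liver genes summed to between 529 and 761 RPM, against 34.3 to 56.1 RPM in E9 AoD and 12.6 to 72.2 RPM at E10.5, with Afp at a mean of 415 RPM. Urogenital ridge genes summed to between 710 and 790 RPM in E10 UGR and between 668 and 699 RPM in E10 AoV, against 55.8 to 176 RPM in the other groups. The similar sums hid unlike genes. In E10 AoV 5 of the 9 were lower than in E10 UGR and 2 were higher, against 16.6% and 12.5% of all tested genes. Wt1 was at 370 RPM in E10 UGR and 226 RPM in E10 AoV, and Gata4 at 64.0 and 233 RPM. Smooth muscle and pericyte genes, which mark the vessel wall outside the endothelium, summed to between 184 and 305 RPM in E9 AoD and 619 and 628 RPM in E9 AoV. At E10.5 their sum was between 801 and 953 RPM in AoD, 1190 and 1250 RPM in AoV and 349 and 393 RPM in UGR. Their order of groups was that of Cdh5, except that the E10 AoV libraries were all above those of E10 AoD. This excess of the sum was not shared by most of its 8 genes. At E10.5, 2 of them were higher ventrally, 1 (Pdgfrb) was lower and 5 did not pass, against 20.2% and 15.3% of all tested genes. Rgs5 had the largest difference, with a dorsal mean of 32.5 RPM and a ventral mean of 261 RPM, whereas Acta2 had a log2 difference of -0.02. The part of these other tissues in the differences of the 10 genes was not tested.

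**Figure D5:**
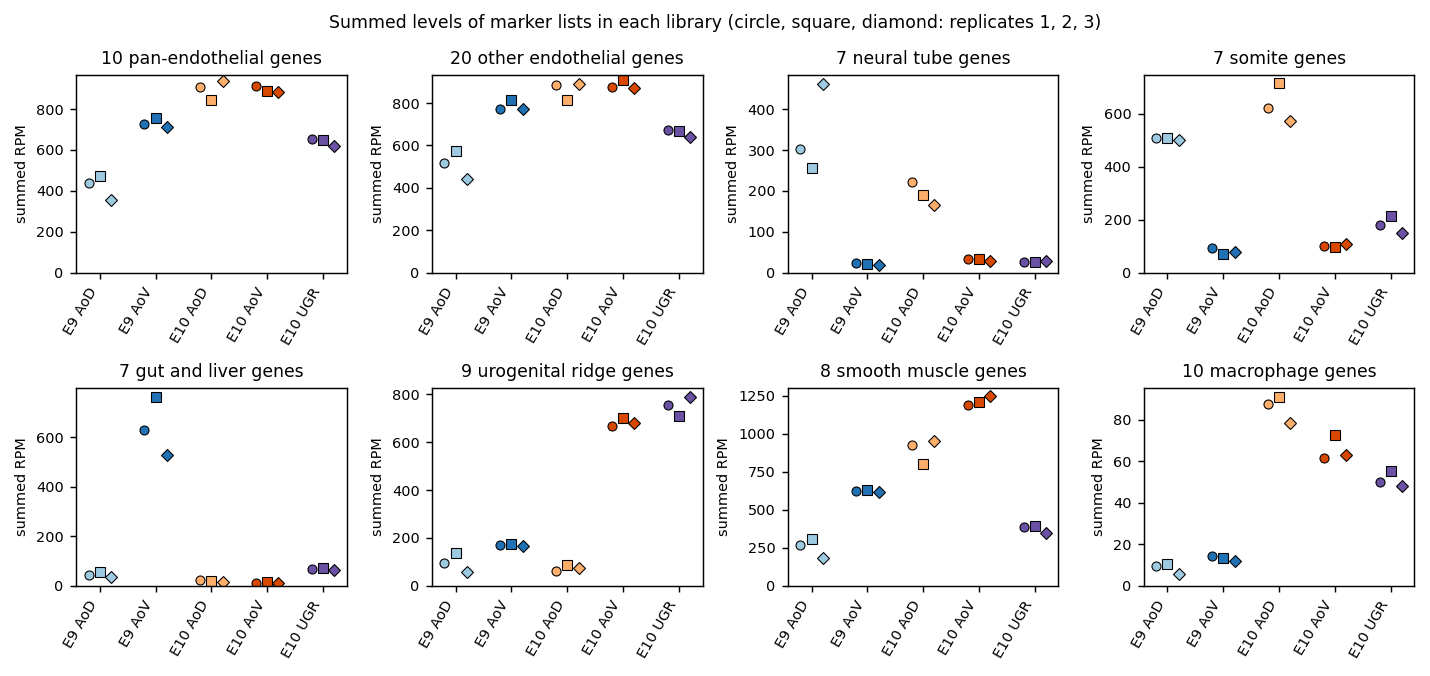
RPM summed over the 10 pan-endothelial genes, over 20 other endothelial genes and over 6 lists of other tissues, in each library; circles, squares and diamonds are the libraries numbered 1, 2 and 3. Endothelial sums are lowest in E9 AoD, where neural tube sums are highest, and gut and liver genes stand out in E9 AoV.

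Blood and germ cells carry Pecam1, and blood cells carry some of the other genes as well. Hematopoietic genes summed to between 36.1 and 41.4 RPM in E9 AoD and 93.7 and 108 RPM in E9 AoV. At E10.5 their sum was between 70.1 and 76.1 RPM in AoD, 118 and 125 RPM in AoV and 59.4 and 62.1 RPM in UGR. Kit, the gene of highest level on this list, had means of 20.7 RPM in E9 AoD, 61.5 RPM in E9 AoV, 26.9 RPM in E10 AoD and 59.2 RPM in E10 AoV. Runx1 had 3.42, 8.54, 15.7 and 23.6 RPM in the same groups. Between E10 AoV and E10 AoD, 5 of the 10 hematopoietic genes were higher and 5 did not pass, where 20.2% of all tested genes were higher. Macrophage genes summed to between 5.79 and 14.4 RPM at E9.5, 78.5 and 91.0 RPM in E10 AoD, 61.4 and 72.5 RPM in E10 AoV and 47.8 and 55.2 RPM in E10 UGR. Megakaryocyte genes were low throughout, between 3.22 and 11.8 RPM, and erythroid genes varied widely within groups, between 2710 and 12800 RPM in E9 AoV. Germ cell genes summed to between 40.6 and 43.3 RPM in E10 AoV and between 4.31 and 11.8 RPM elsewhere. Between E10 AoV and E10 AoD 8 of 8 germ cell genes were higher, led in level by Pou5f1 with a mean of 14.7 against 0.284 RPM, whereas the difference of Pecam1 was -0.02 (95% interval -0.17 to 0.12). The part of blood cells in the levels of the 10 genes was not tested.

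The likeness of the 10 genes to each other was described by the correlation over the 15 libraries, which fall into 5 groups, of each gene with the mean of the other 9. It was between 0.93 and 0.97 for Pecam1, Tie1, Cdh5 and Esam, between 0.81 and 0.85 for Nos3, Flt1 and Tek, and 0.64, 0.52 and 0.45 for Klf2, Kdr and Emcn. Of 15635 genes with a mean of at least 1 RPM, the 10 outside the list that were most like the mean of all 10 members were Maged2, Tgfb1, Anxa5, Wdr1, Copz2, Arpc1b, Lasp1, Alox5ap, RP23-419J18.2 and Entpd1, with correlations between 0.974 and 0.991. None of them was on the list of 20 endothelial genes, whose correlations were between 0.37 and 0.96 with a median of 0.88. Of all genes compared, 95% lay below 0.84. Without Klf2, which weighs most in that mean, the closest were Fam114a1, Prcp, Pde3a, Anxa5 and Bcl6b, between 0.976 and 0.983.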

How the data were processed

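RNA from 15 pools of dissected C57BL/6 embryo tissue was sequenced by the authors as 50-base single-end TruSeq reads, aligned to NCBIM37 (mm9) with TopHat and Bowtie 0.12.3 and counted over Ensembl genes with GeneProf, in which multi-mapping reads are divided among genes. The deposited values are RPM (reads-per-million assigned to genes), rounded by the authors to 3 significant digits and not adjusted for gene length. The table also holds 12 columns of the authors' own DESeq comparisons (log2 fold changes and adjusted p-values), which were not used. Counting intervals cover counting error only.

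The filter kept genes that reached 0.5 RPM in at least 1 library. Values were transformed to log2(RPM + 0.1), and limma 3.58.1 (R 4.3.3) fitted the 15 libraries together as 5 group means, with an intensity trend and Benjamini-Hochberg adjustment over all 18553 genes. The fit was tested on simulated data. The study also required a 2-fold change, which is given as an alternative. Other alternatives were quantile and median-ratio scaling, pseudocounts of 1 and 0.01 RPM, no filter, robust moderation, a replicate block, only the groups compared, and each library left out.

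Same-numbered libraries deviated together in E9 AoV and E9 AoD, where the correlations of their deviations from the group means were 0.452, 0.347 and 0.19. The blocked value is given there beside Klf2, the only one of the 10 genes whose call it changed. Positions, exon lengths and overlaps come from GENCODE vM1 on NCBIM37, in which 95.3% of gene IDs were found. Promoter windows are RefSeq's on GRCm38.p6.

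The 10 genes and all lists were chosen with earlier results of these data known, from general knowledge. The text names all members, the 10 other genes most like their mean, up to 4 genes of highest mean RPM from each other list, and any gene of the VEGF, angiopoietin, flow and transcription factor lists. Beyond these, it names the immediate early genes and the genes closest to the mean without Klf2, both added after the values of Klf2 were seen. It also names Cldn5, which the junction list shares with the list of further endothelial genes.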

Additional observations from a re-analysis of the deposited data

Results flagged for a closer look

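The stage change of 9 of the 10 genes differed between AoV and AoD by the test of the interaction itself (limma, adjusted over all tested genes). The ventral change minus the dorsal change, on the log2(RPM + 0.1) scale, was -1.36 for Tek, -0.88 for Nos3, -0.82 for Flt1, -0.81 for Tie1, -0.77 for Pecam1, -0.74 for Cdh5, -0.62 for Esam, -0.59 for Kdr and -0.46 for Emcn. Kdr is the only one of the 10 that passed in opposite directions, rising by 0.30 in AoD and falling by 0.29 in AoV. The fall in AoV no longer passed without the second E9 AoV library (adjusted p = 0.053) or without the third E10 AoV library (0.06). Groups of 3 libraries were not searched for outlying samples.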

How the results depend on the processing

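Over the 10 genes and 7 results, 1036 of the alternative values kept their direction and their side of the threshold, 21 kept the direction but no longer passed, 14 newly passed and 19 changed sign. With a 2-fold change required as well, the number of genes that passed was 1 for E10 AoV against E9 AoV, 5 for E10 AoD against E9 AoD, 0 for E10 AoV against E10 AoD, 1 for E9 AoV against E9 AoD, 0 for both comparisons with E10 UGR and 1 for the interaction. The single call in E10 AoV against E10 AoD (Kdr) became 0 with median-ratio scaling and without the filter, 2 with only the groups compared (Kdr and Flt1), and between 0 and 1 with a library left out; at an unadjusted p under 0.05 Kdr and Flt1 passed. After quantile normalisation the count stayed 1 but the gene was Flt1 (adjusted p = 0.0434) in place of Kdr (0.0512). Kdr in E10 AoD against E10 UGR did not pass after quantile normalisation, with median-ratio scaling or without the filter either (adjusted p between 0.0554 and 0.142). Apart from E10 AoV against E10 AoD, counts stayed within 1.5 times of those reported under the alternatives other than the 2-fold threshold. The values that changed sign all belonged to differences that did not pass. For E10 AoV against E9 AoV these were Nos3 at -0.0007 after quantile normalisation, between -0.01 and 0.08 with a library left out and -0.01 without the first library of both E9.5 groups, and Emcn between -0.10 and 0.01 with a library left out. For E10 AoV against E10 AoD they were Tie1 at -0.0038 after quantile normalisation, -0.01 with median-ratio scaling and between -0.03 and 0.06 with a library left out, Esam at -0.02 after quantile normalisation and with median-ratio scaling and between -0.07 and 0.05 with a library left out, Emcn between -0.09 and 0.02 and Pecam1 between -0.07 and 0.01 with a library left out. Kdr in E10 AoV against E10 UGR was between -0.05 and 0.07 with a library left out. The cause was not tested. The replicate block, tried for every comparison, changed the calls of Klf2 in E9 AoV against E9 AoD (0.86, adjusted p = 0.034) and in E10 AoD against E10 UGR (0.89, adjusted p = 0.0347) and no other. Outside E9 AoV and E9 AoD, 8 of 27 same-numbered pairs had a correlation over 0.1 (from -0.138 to 0.339). Within E10.5 all 9 were positive and 6 were over 0.1 (from 0.0416 to 0.339). No comparison other than E9 AoV against E9 AoD had every pair over 0.1.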
